A study of Mus musculus with 17 samples.

Results

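Messenger RNA of 10 genes that encode chaperones, thiol oxidoreductases and stress proteins of the endoplasmic reticulum (ER) was followed in stem cells of mouse skin. The genes, Calr, Canx, Hspa5, Hsp90b1, Pdia3, Pdia4, Pdia6, Dnajb9, Xbp1 and Herpud1, were listed by name, and all 10 were found among the 35674 gene symbols of the 3 deposited tables. Their values were read in every library as TPM, a transcript abundance per length that sums to a fixed total in each library. All mice were wild type (WT), and the cells were purified from skin by fluorescence-activated sorting. The sources used here give neither ages, sexes nor the surface markers of the sort, and do not say whether replicates came from separate animals.

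In a short experiment, hair follicle stem cells (HFSCs), the bulge cells that rebuild the follicle at each hair cycle, were taken under 3 conditions, which were ad libitum feeding, a 24 h fast and a 48 h fast, with 3 libraries each. Epidermal stem cells (EpiSCs), which renew the epidermis between follicles, came from mice fed ad libitum and had 2 libraries. HFSCs of the 2nd telogen, a resting phase of the hair cycle, had 2 libraries, which carry the treatment label Control. In the long-term experiment mice spent 6 months on alternate-day fasting (ADF) and were sampled the day after a fast (2 HFSC libraries), or spent 6 months on food ad libitum (2 HFSC libraries). The 17 libraries thus form 7 groups. The treatment field of the ADF libraries reads ad libitum while their titles give ADF, and the titles were followed.

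Proteins that enter the secretory pathway fold inside the ER, which is oxidising and rich in calcium. BiP (Hspa5), GRP94 (Hsp90b1) and the lectins calreticulin and calnexin hold unfolded chains, and disulphide isomerases form and rearrange their disulphide bonds. When unfolded proteins accumulate, the sensors IRE1, PERK and ATF6 start the unfolded protein response, in which IRE1 splices Xbp1 messenger RNA and the factors XBP1, ATF4 and ATF6 raise the transcription of folding and degradation genes. Basal keratinocytes and follicle stem cells secrete and display many such proteins, among them collagens, laminins, integrins and cadherins.

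The promoters of these genes are classical sites of that response, so the 250 bases before the annotated start are shown for 5 of the 6 genes that held a match in the search described next. ATF6 together with NF-Y binds the ER stress response element (ERSE), which was searched as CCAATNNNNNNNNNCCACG on both strands. The compact element ERSE-II was searched as ATTGGNCCACG, and the 8-base element UPRE as TGACGTGG, also on both strands. The windows, of 250 bases before to 50 bases after each start, came from RefSeq (GRCm38.p6), where all 10 genes matched by symbol. Sequences run 5′ to 3′ along the strand of the gene, and capitals mark the matched element, ERSE in the first 4 and ERSE-II in the last. The regions are chr2:34771840-34772089 on the plus strand for Hspa5, chr10:86705445-86705694 on the minus strand for Hsp90b1, chr8:84846932-84847181 on the minus strand for Calr, chr12:17266339-17266588 on the plus strand for Pdia6 and chr8:94386179-94386428 on the plus strand for Herpud1.
Hspa5: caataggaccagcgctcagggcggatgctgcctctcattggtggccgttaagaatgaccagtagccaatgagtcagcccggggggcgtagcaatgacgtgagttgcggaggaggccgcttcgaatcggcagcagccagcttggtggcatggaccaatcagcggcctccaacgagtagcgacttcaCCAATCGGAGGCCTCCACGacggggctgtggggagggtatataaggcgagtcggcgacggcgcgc
Hsp90b1: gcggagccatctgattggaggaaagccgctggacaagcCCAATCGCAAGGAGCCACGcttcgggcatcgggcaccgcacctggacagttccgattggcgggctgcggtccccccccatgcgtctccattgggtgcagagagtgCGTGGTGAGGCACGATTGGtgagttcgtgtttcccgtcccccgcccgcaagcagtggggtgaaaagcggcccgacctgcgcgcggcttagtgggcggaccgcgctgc
Calr: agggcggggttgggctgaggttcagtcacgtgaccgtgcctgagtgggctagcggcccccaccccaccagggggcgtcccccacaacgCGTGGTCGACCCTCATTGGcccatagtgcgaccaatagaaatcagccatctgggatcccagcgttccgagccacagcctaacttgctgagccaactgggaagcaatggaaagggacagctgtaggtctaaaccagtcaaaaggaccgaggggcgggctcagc
Pdia6: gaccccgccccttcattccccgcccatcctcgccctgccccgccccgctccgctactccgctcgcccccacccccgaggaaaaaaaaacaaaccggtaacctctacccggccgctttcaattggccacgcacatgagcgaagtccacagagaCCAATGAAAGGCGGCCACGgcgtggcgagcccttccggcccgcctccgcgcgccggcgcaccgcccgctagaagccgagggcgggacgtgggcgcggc
Herpud1: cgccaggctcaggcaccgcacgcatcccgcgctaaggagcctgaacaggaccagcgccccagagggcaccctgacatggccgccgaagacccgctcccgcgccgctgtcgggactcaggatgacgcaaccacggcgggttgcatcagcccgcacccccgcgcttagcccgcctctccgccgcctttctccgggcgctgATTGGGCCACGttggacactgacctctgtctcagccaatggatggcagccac

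An exact ERSE stood in 39 of 32851 RefSeq promoter windows (0.119%), 5 of which belong to the 10 genes. In Hspa5 it lay 65 to 47 bases before the start, in forward orientation, and in Pdia6 98 to 80 bases before it. Hsp90b1 held a pair of matches, a forward one 212 to 194 bases and a reverse one 107 to 89 bases before the start. The Calr match was reversed and lay 162 to 144 bases before the start, and Canx held a forward match at 145 to 127 bases (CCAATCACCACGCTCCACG). Herpud1 held ERSE-II 52 to 42 bases before its start, a motif found in 12 windows (0.0365%). UPRE, found in 222 windows (0.676%), was in none of the 10. The 300-base windows of Pdia3, Pdia4, Dnajb9 and Xbp1 held none of the 3 exact motifs. Positions count from the RefSeq start. The GENCODE gene start used further below lies 120 bases before it for Hspa5, 65 for Hsp90b1, 44 for Pdia6 and 3 for Calr. The Hspa5 match thus falls inside the gene as GENCODE draws it. For Dnajb9 the GENCODE start lies 258 bases before the RefSeq start, so its whole window falls inside that gene. Bases upstream of the GENCODE start of Dnajb9 were not searched. For Pdia3 the GENCODE start lies 127 bases before the RefSeq start. The last 25 bases of the Pdia4 window were not found in a GENCODE transcript. A match describes the letters only, and no factor binding was measured in these libraries.

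Within the libraries, between 10422 and 12087 genes reached 1 TPM, and TPM holds no read counts, so sequencing depth is unknown. Transcripts of the mitochondrial genome took 25.4% to 33.9% of all TPM in ad libitum HFSCs of the short experiment, 18.8% to 36.3% in 24 h fasted and 7.26% to 13.0% in 48 h fasted HFSCs, against 2.84% to 4.10% in the EpiSC, telogen and long-term libraries. Since TPM sums to a fixed total, values were also tested after median-ratio scaling, which sets the typical gene equal across libraries, and these are called scaled values. All 8 HFSC markers listed (Cd34, Krt15, Lgr5, Sox9, Lhx2, Nfatc1, Lgr6 and Tcf7l1) averaged at least 1 TPM in each HFSC group, and 4 of the 8 did in EpiSCs. Their summed TPM in EpiSCs, mostly Krt15, was 33916 to 34505, within the range of the HFSC libraries. Lgr6 averaged 30.7 TPM in EpiSCs and 16.1 TPM in ad libitum HFSCs. The summed TPM of 8 interfollicular markers was 11794 to 12594 in EpiSCs and at most 1230 in HFSCs. Ly6d made up most of the EpiSC sum (8678 TPM on average). Against ad libitum HFSCs, Sbsn (121 and 323 TPM) and Ivl (2.15 and 6.76 TPM) averaged lower in EpiSCs and the others higher. Summed markers of other cell types in any library were at most 166 TPM for immune cells, 85.0 for sebocytes, 83.5 for erythroid cells, 82.1 for melanocytes, 75.7 for fibroblasts and 2.72 for endothelium. Jchain, a marker of plasma cells, which are rich in ER, was at most 0.0847 TPM in any library.

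After 24 h of fasting, HFSCs held less RNA of 3 major ER folding proteins and more of the co-chaperone Dnajb9. Calr, Pdia6 and Hsp90b1 fell to between 0.410 and 0.499 of their mean in ad libitum HFSCs, while Dnajb9 rose 2.26-fold. The mean of Hspa5, the central chaperone of the ER, stood at 0.712 of its fed level and did not pass the test. In all, 1 of the 10 genes rose, 3 fell and 6 did not pass. Of all 11533 genes tested, 1.47% rose and 1.6% fell. Scaling left these counts of the 10 at 1 and 3, where 2.65% of all genes rose and 2.19% fell.

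Calr encodes calreticulin, a soluble calcium-binding lectin that holds newly made glycoproteins. It measured 69.8, 69.2 and 75.6 TPM in 24 h fasted HFSCs, against 173, 178 and 173 TPM in ad libitum HFSCs. The 3 fasted libraries lay close together and all below the fed ones, at a log2 difference of -1.28 (SE 0.215, limma adjusted p = 0.00504). Here and below, fold changes are log2 differences of TPM + 1, tested with limma across all genes with a Benjamini-Hochberg adjusted p under 0.05 as the threshold. Fewer cells of a type and less RNA per cell cannot be told apart in such bulk libraries.

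Pdia6, a disulphide isomerase that also restrains the stress sensors, measured 86.5, 76.2 and 104 TPM in 24 h fasted HFSCs and 209, 209 and 153 TPM in ad libitum HFSCs. No fasted library reached the lowest fed one, and the log2 fold change was -1.09 (SE 0.223, adjusted p = 0.016). Hsp90b1, the GRP94 chaperone needed for integrins and Toll-like receptors to mature, measured 54.6, 44.7 and 54.3 TPM in 24 h fasted HFSCs and 108, 98.1 and 102 TPM in ad libitum HFSCs. Again the groups did not overlap, at a log2 difference of -0.995 (SE 0.223, adjusted p = 0.0256). The Calr call held without any single library. The Pdia6 call was lost without ad libitum library 1 (adjusted p = 0.0942) or 2 (0.0604), and that of Hsp90b1 without ad libitum library 1 (0.112), 2 (0.0578) or 3 (0.0845) or 48 h library 2 (0.0514).

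Dnajb9 encodes ERdj4, a BiP co-chaperone that brings BiP to IRE1 and to clients bound for degradation. It measured 105, 85.1 and 96.4 TPM in 24 h fasted HFSCs and 37.6, 36.2 and 53.0 TPM in ad libitum HFSCs. Every fasted library was above every fed one (log2 fold change 1.17, SE 0.235, adjusted p = 0.0144), in the opposite direction to the chaperones. That call was lost without ad libitum library 1 (adjusted p = 0.0767) or 2 (0.0533). With only the 24 h and ad libitum libraries fitted, Calr alone of the 10 passed, and Dnajb9, Pdia6 and Hsp90b1 had adjusted p-values of 0.0547, 0.0537 and 0.0853.

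Among the genes that did not pass at 24 h, Hspa5 measured 169, 145 and 173 TPM in fasted HFSCs and 259, 232 and 193 TPM in ad libitum HFSCs (log2 fold change -0.48, SE 0.205, adjusted p = 0.24). Its groups did not overlap, nor did those of Pdia3, the oxidoreductase that works with the lectins, at 148, 116 and 133 TPM in fasted HFSCs and 193, 175 and 179.5 TPM in ad libitum HFSCs. Herpud1, a membrane protein of ER-associated degradation, measured 33.8, 39.3 and 46.2 TPM in fasted HFSCs and 20.4, 30.0 and 25.7 TPM in ad libitum HFSCs (0.63, adjusted p = 0.24). Of the 10 genes 2 were higher and 5 lower in every fasted than in every fed library, against 7.77% and 10.1% of all genes. Canx, Pdia4 and Xbp1 overlapped between the groups. Canx measured 32.3, 33.9 and 44.9 TPM in fasted HFSCs and 30.0, 43.0 and 27.2 TPM in ad libitum HFSCs, a log2 fold change of 0.16 (95% interval -0.43 to 0.75). Xbp1 measured 114, 74.6 and 102 TPM in fasted HFSCs and 78.1, 107 and 96.8 TPM in ad libitum HFSCs (0.03, 95% interval -0.47 to 0.54). Pdia4 was at 19.1 to 23.5 TPM in fasted HFSCs and 22.8 to 36.8 TPM in ad libitum HFSCs (-0.57, adjusted p = 0.344). The median log2 fold change was -0.47 over the 10 genes and -0.02 over all genes tested. The summed TPM of HFSC markers was 18980 to 32360 in 24 h fasted HFSCs and 37477 to 40652 in ad libitum HFSCs, and its part in these differences was not tested. Krt15, also high in EpiSCs, made up most of this sum (24199 TPM on average in 24 h fasted HFSCs and 38033 TPM in ad libitum HFSCs), while Cd34 averaged 501 TPM in 24 h fasted HFSCs and 516 TPM in ad libitum HFSCs.

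**Figure D1:**
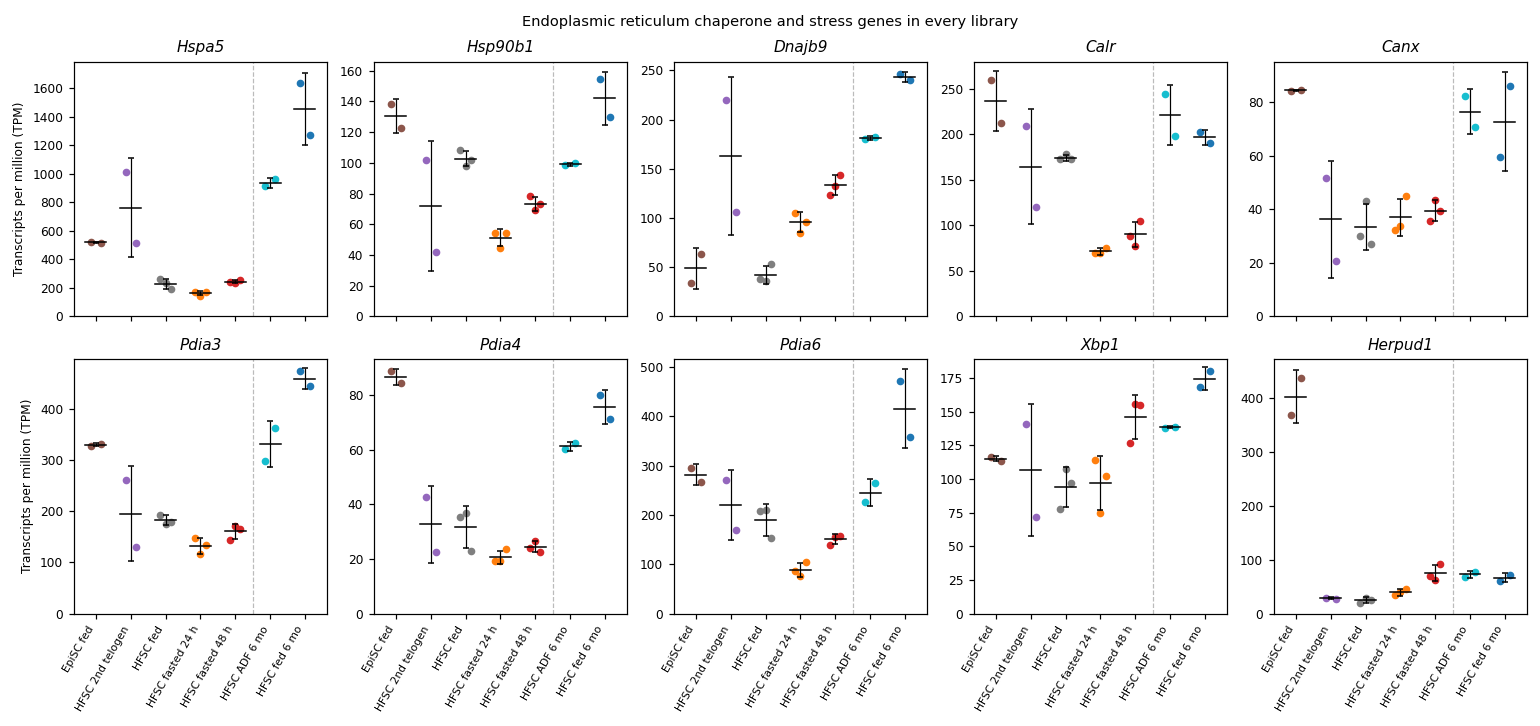
TPM, on a linear axis from 0, of each of the 10 genes, 1 panel a gene, with 1 point for each of the 17 libraries, a horizontal line at each group's mean and error bars of 1 SD; a dashed vertical line sets the long-term groups apart, which were deposited in a table of their own. Calr was at 69.2 to 75.6 TPM after 24 h of fasting and at 173 to 178 TPM in ad libitum HFSCs, and Herpud1 was at 369 and 438 TPM in EpiSCs.

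After 48 h, the rise of Dnajb9 and the fall of Calr were both still called, and Herpud1 had joined the genes that rose. Of the 10 genes 2 rose, 1 fell and 7 did not pass, where 13.3% of all genes rose and 1.98% fell. Over all genes the median log2 fold change was 0.42 as deposited and -0.01 after scaling. With scaled values 2 of the 10 rose and 4 fell, where 5.22% of all genes rose and 5.19% fell. As deposited, in 3 of the 10 every 48 h library was above every ad libitum one, against 35.5% of all genes, and in 3 every one was below, against 7.07%. After scaling these counts were 2 above and 6 below, and the scaled shares of all genes are not given here. The genes that passed only after scaling were Hsp90b1, Pdia3 and Pdia6, all lower. Summed HFSC markers, mostly Krt15, were 23028 to 32185 TPM in 48 h fasted HFSCs and 37477 to 40652 TPM in ad libitum HFSCs, and their part in these differences was not tested.

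Dnajb9 measured 123, 133 and 143 TPM in 48 h fasted HFSCs, against 37.6, 36.2 and 53.0 TPM in ad libitum HFSCs. Every fasted library was above every fed one, and the log2 fold change was 1.65 (SE 0.235, adjusted p = 0.000454; scaled 1.16, adjusted p = 0.00761). Herpud1 measured 69.7, 63.3 and 91.9 TPM in 48 h fasted HFSCs and 20.4, 30.0 and 25.7 TPM in ad libitum HFSCs. All fasted libraries stood above the fed ones, at a log2 difference of 1.53 (SE 0.271, adjusted p = 0.00203; scaled 1.04, adjusted p = 0.0168). Calr measured 88.7, 77.3 and 104 TPM in 48 h fasted HFSCs, again below every ad libitum library, at a log2 difference of -0.96 (SE 0.215, adjusted p = 0.00831; scaled -1.45, adjusted p = 0.00132). Without 48 h library 2 the Calr call was lost on the deposited scale (adjusted p = 0.0609).

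Hsp90b1 measured 78.2, 69.0 and 72.9 TPM in 48 h fasted HFSCs, against 108, 98.1 and 102 TPM in ad libitum HFSCs. The groups did not overlap, and the log2 fold change was -0.48 (adjusted p = 0.155) as deposited and -0.97 (adjusted p = 0.0114) after scaling. Pdia6 measured 139, 156 and 157 TPM in 48 h fasted HFSCs (deposited -0.32, adjusted p = 0.34; scaled -0.82, adjusted p = 0.0198), and Pdia3 144, 171 and 166 TPM (deposited -0.19, adjusted p = 0.567; scaled -0.68, adjusted p = 0.0467). These 3 genes were thus called or not depending on the scale. Pdia4, a large isomerase with several thioredoxin-like domains, measured 24.1, 26.7 and 22.6 TPM in 48 h fasted HFSCs and 35.2, 36.8 and 22.8 TPM in ad libitum HFSCs (-0.33, adjusted p = 0.472).

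Hspa5 measured 239.7, 234 and 259 TPM in 48 h fasted HFSCs and 259, 232 and 193 TPM in ad libitum HFSCs, so that the groups overlapped (log2 fold change 0.11, 95% interval -0.33 to 0.54, adjusted p = 0.756; scaled -0.39). Xbp1, the transcription factor gene of the IRE1 branch, measured 127, 156 and 155 TPM in 48 h fasted HFSCs and 78.1, 107 and 96.8 TPM in ad libitum HFSCs. All fasted libraries were higher, yet the log2 fold change of 0.63 did not pass (adjusted p = 0.0835; scaled 0.14). The values count all Xbp1 transcripts of a gene together, so spliced and unspliced forms are not distinguished. Canx, the membrane-bound partner of calreticulin, stayed within 35.6 to 43.4 TPM in 48 h fasted HFSCs, against 27.2 to 43.0 TPM in ad libitum HFSCs (0.26, adjusted p = 0.559; scaled -0.22). Calreticulin and calnexin share the same glycan ligand, and the log2 fold changes of their genes were -1.28 and 0.16 at 24 h and -0.96 and 0.26 at 48 h.

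**Figure D2:**
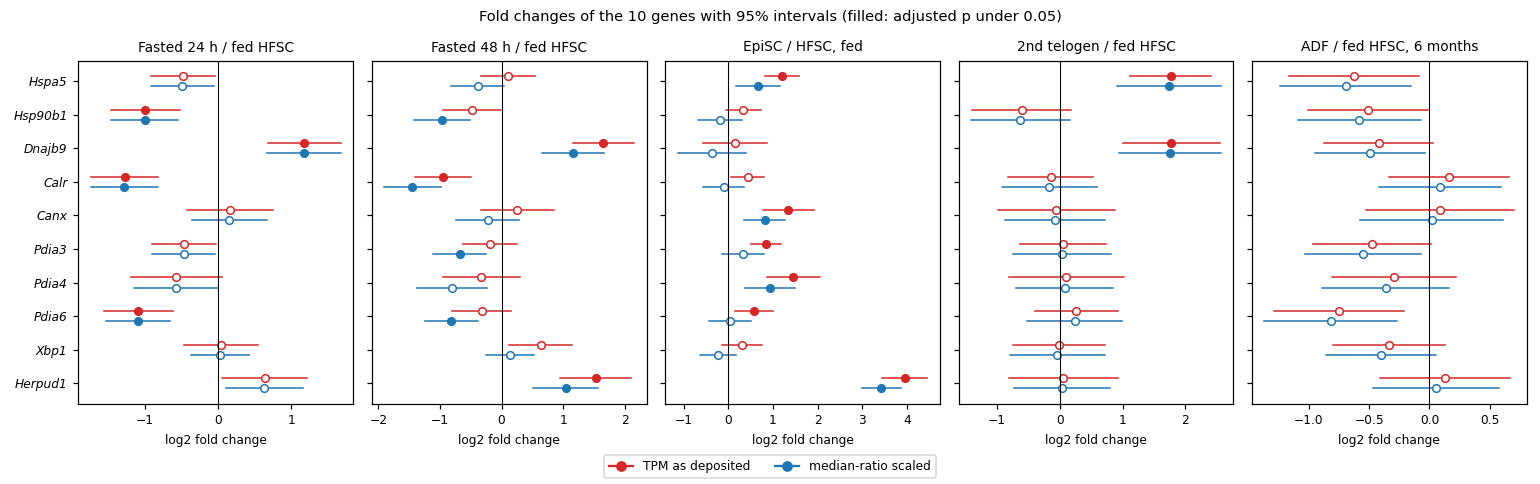
Log2 fold change of TPM + 1 with its 95% interval for each of the 10 genes in 5 comparisons, as deposited and after median-ratio scaling, with filled points where the adjusted p was under 0.05. Calr was at -1.28 and Dnajb9 at 1.17 for 24 h against ad libitum, and Herpud1 at 3.95 for EpiSCs against HFSCs.

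Between the fasts, none of the 10 genes passed at 48 h against 24 h with limma, where 0.026% of all genes rose and 0.0173% fell. At an unadjusted p under 0.05, 5 of the 10 were higher at 48 h, with deposited log2 fold changes of 0.59 for Hspa5, 0.51 for Hsp90b1, 0.76 for Pdia6, 0.60 for Xbp1 and 0.89 for Herpud1, and 0 were after scaling. Over all 11533 genes that threshold was met in either direction by 2461 as deposited and 881 after scaling. In 7 genes every 48 h library was above every 24 h library, against 25.3% of all genes, and 1 gene after scaling, against 6.5%. The median log2 fold change of the 10 genes was 0.50 as deposited and 0.01 after scaling, beside 0.47 and 0.03 over all genes. The 24 h and 48 h comparisons share the ad libitum libraries, so their values stand side by side here as separate readings.

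A ratio of 2 genes within 1 library does not depend on how libraries are scaled. Dnajb9 averaged 0.412 ± 0.093 of the TPM of Hsp90b1 in ad libitum HFSCs, 1.87 ± 0.0815 in 24 h fasted and 1.82 ± 0.214 in 48 h fasted HFSCs (SD, n = 3 each). The ratio was 0.348 to 0.519 in the fed libraries and at least 1.58 in all 6 fasted ones, so these ranges did not overlap. Since Dnajb9 was called higher and Hsp90b1 lower at 24 h, the ratio restates those calls in a form free of scaling. Hspa5 took 20.6% ± 1.95 of the summed TPM of the 10 genes in ad libitum HFSCs, 20.4% ± 0.198 in 24 h fasted and 21.5% ± 0.871 in 48 h fasted HFSCs. The sum itself was 1105 ± 68.3, 797 ± 81.1 and 1137 ± 71.1 TPM in these groups.

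**Figure D3:**
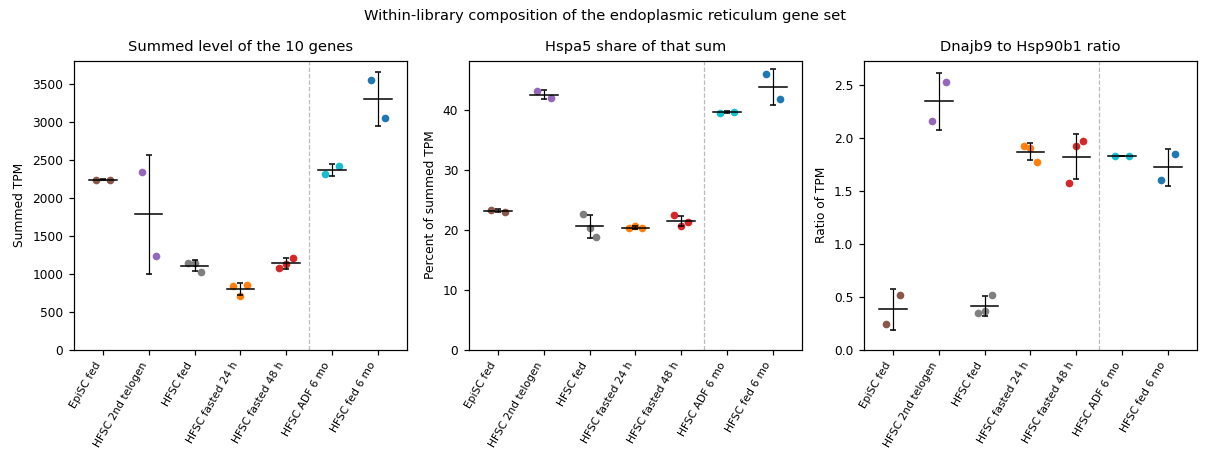
Summed TPM of the 10 genes, the percent of that sum that Hspa5 took, and the ratio of Dnajb9 to Hsp90b1 TPM, by group with 1 point a library, a horizontal line at the mean and error bars of 1 SD; a dashed vertical line sets the long-term groups apart. The ratio was 0.348 to 0.519 in ad libitum HFSCs of the short experiment, and Hspa5 took 18.8% to 22.7% there and 41.8% to 46.0% in long-term ad libitum HFSCs.

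Telogen HFSCs differed from ad libitum HFSCs in BiP and its co-chaperone: Hspa5 and Dnajb9 rose and the other 8 genes did not pass. Of all 11618 genes in that fit, 5.01% rose and 1.09% fell, and after scaling 5.53% rose and 1.84% fell, with the same 2 of the 10 called. Hspa5 measured 1009 and 516 TPM in telogen HFSCs, against 232 and 193 TPM in ad libitum libraries 2 and 3, which are deposited in the same table. Both telogen libraries were above both others, at a log2 difference of 1.76 (SE 0.318, adjusted p = 0.000421; scaled 1.74). Dnajb9 measured 219.7 and 106 TPM in telogen HFSCs and 36.2 and 53.0 TPM in ad libitum HFSCs, which did not overlap (log2 fold change 1.78, SE 0.378, adjusted p = 0.00269; scaled 1.75). In the telogen table the names of both ad libitum columns begin with ana1, a prefix of unknown meaning. The treatment label also differs, being Control for telogen and ad libitum for the others. What part these labels have in the differences was not tested.

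As deposited, in no other of the 10 genes were both telogen libraries on one side of both ad libitum ones. Such separation, seen upward in 2 and downward in 0 of the 10, was seen in 24.4% and 19.8% of all genes. After scaling Pdia6 was also separated upward and Hsp90b1 downward, where 24.3% and 24.5% of all genes were. Calr measured 209 and 120.0 TPM in telogen HFSCs and 178 and 173 TPM in ad libitum HFSCs (-0.15, 95% interval -0.82 to 0.53). Hsp90b1 measured 102 and 41.8 TPM in telogen HFSCs and 98.1 and 102 TPM in ad libitum HFSCs (-0.61, adjusted p = 0.492). Pdia3, Pdia4 and Pdia6 had log2 fold changes of 0.05, 0.10 and 0.26, and Canx, Xbp1 and Herpud1 of -0.06, -0.02 and 0.06, where the 95% interval for Canx ran from -0.98 to 0.87. Xbp1, at 141 and 71.8 TPM in telogen HFSCs and 107 and 96.8 TPM in ad libitum HFSCs, spanned the fed values. The first telogen library was above the second for all 10 genes, though for Herpud1 only slightly, at 29.9 and 27.9 TPM. Without that first library neither call passed (adjusted p = 0.136 for Hspa5 and 0.238 for Dnajb9), and without the filter on low values neither did (0.23 and 0.265). Dnajb9 in addition missed the threshold when ad libitum library 2 (0.0524) or the second telogen library (0.0859) was left out. The submitters' processing notes name Trimmomatic for the telogen libraries and fastp for the ad libitum ones, so processing and group cannot be told apart. Summed immune markers were 39.9 and 39.2 TPM in telogen HFSCs and 6.29 and 3.93 TPM in ad libitum HFSCs, erythroid markers 36.9 and 83.5 TPM in telogen HFSCs and 3.14 and 16.4 TPM in ad libitum HFSCs, and fibroblast markers 42.6 and 37.8 TPM in telogen HFSCs and 17.9 and 22.7 TPM in ad libitum HFSCs. Their part in the telogen values was not tested.

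In the long-term experiment none of the 10 genes passed for ADF against ad libitum feeding with limma, where 0.00822% of all genes rose and 0 fell. At an unadjusted p under 0.05, 3 of the 10 were lower in ADF, and 5 after scaling, where 1720 and 1705 of all 12162 genes met that threshold in either direction. Pdia6 measured 226 and 265 TPM in ADF HFSCs and 473 and 359 TPM in long-term ad libitum HFSCs (log2 fold change -0.75, SE 0.226, adjusted p = 0.275). Hspa5 measured 912 and 961 TPM in ADF HFSCs and 1634 and 1273 TPM in long-term ad libitum HFSCs (-0.62, 95% interval -1.16 to -0.09, adjusted p = 0.317). Hsp90b1 measured 98.6 and 99.8 TPM in ADF HFSCs and 154 and 130.0 TPM in long-term ad libitum HFSCs (-0.51, adjusted p = 0.347). The groups did not overlap for these genes, but the differences missed the threshold.

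Dnajb9 measured 180.0 and 183 TPM in ADF HFSCs and 247 and 239.9 TPM in long-term ad libitum HFSCs (-0.42, adjusted p = 0.377), the reverse order of that in the short fasts. Calr, by contrast with the short fasts, measured 244 and 198 TPM in ADF HFSCs and 203 and 191 TPM in long-term ad libitum HFSCs (0.16, 95% interval -0.34 to 0.66). In 7 of the 10 genes both ADF libraries were below both ad libitum ones, and in 0 both were above, against 21% and 29.6% of all genes. Those 7 included Pdia3, at 299 and 362 TPM in ADF HFSCs and 473 and 444 TPM in long-term ad libitum HFSCs (-0.48, adjusted p = 0.361), Pdia4, at 60.1 and 62.5 TPM in ADF HFSCs and 79.8 and 71.0 TPM in long-term ad libitum HFSCs (-0.29), and Xbp1, at 138 and 139 TPM in ADF HFSCs and 169 and 181 TPM in long-term ad libitum HFSCs (-0.33). Canx and Herpud1, like Calr, overlapped between the diets. The median log2 fold change was -0.38 over the 10 genes and 0.09 over all genes. Summed immune markers, mostly Cd74, were 55.3 to 95.2 TPM in ADF HFSCs and 115 to 166 TPM in long-term ad libitum HFSCs, and their part in these values was not tested.

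EpiSCs differed from HFSCs of the same ad libitum diet most of all in Herpud1, which was 15.9-fold higher. Of the 10 genes 6 were higher in EpiSCs, 0 were lower and 4 did not pass, where 31.5% of all 11774 genes tested were higher and 9.1% lower. After scaling 4 were higher and 0 lower, where 17% of all genes were higher and 15.6% lower. The 4 that passed on both scales were Herpud1, Hspa5, Canx and Pdia4.

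Herpud1 measured 369 and 438 TPM in EpiSCs, against 20.4, 30.0 and 25.7 TPM in ad libitum HFSCs. The log2 fold change was 3.95 (95% interval 3.45 to 4.45, adjusted p = 1.04e-05; scaled 3.43, adjusted p = 1.88e-05), and 151 of the 11774 genes had a higher one. It was the lowest of the 10 genes in ad libitum HFSCs by mean TPM, and in EpiSCs the second highest after Hspa5. Hspa5 measured 523 and 515 TPM in EpiSCs and 259, 232 and 193 TPM in ad libitum HFSCs (1.19, SE 0.166, adjusted p = 0.000998; scaled 0.66, adjusted p = 0.0454). Canx measured 84.3 and 84.6 TPM in EpiSCs and 30.0, 43.0 and 27.2 TPM in ad libitum HFSCs (1.34, SE 0.248, adjusted p = 0.0039; scaled 0.82, adjusted p = 0.0157). EpiSC libraries lay above all 3 of these ad libitum HFSC libraries for Herpud1, Hspa5 and Canx. As deposited the same held for 9 of the 10 genes, against 50.5% of all genes, and the reverse for 0 of the 10, against 16.2%. After scaling it held for 5 of the 10 and the reverse for 1, Xbp1. The scaled shares of all genes are not given here.

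Pdia4 measured 88.7 and 84.5 TPM in EpiSCs and 35.2, 36.8 and 22.8 TPM in ad libitum HFSCs (1.46, SE 0.258, adjusted p = 0.00322; scaled 0.93, adjusted p = 0.0208). Pdia3 measured 328 and 331 TPM in EpiSCs and 193, 175 and 179.5 TPM in ad libitum HFSCs (0.85, SE 0.146, adjusted p = 0.00272), and after scaling it did not pass (0.32, adjusted p = 0.261). Pdia6 likewise passed as deposited (0.57, adjusted p = 0.039) and not after scaling (0.04, adjusted p = 0.897). Calr measured 260.2 and 213 TPM in EpiSCs, above all ad libitum HFSC libraries, and did not pass (0.43, adjusted p = 0.0606; scaled -0.10). Hsp90b1 measured 138 and 123 TPM in EpiSCs (0.34, adjusted p = 0.139; scaled -0.19) and Xbp1 117 and 114 TPM (0.30, adjusted p = 0.244; scaled -0.23), both above the ad libitum HFSCs as deposited and lower on average after scaling, without passing either test. Dnajb9 differed between the EpiSC libraries themselves, at 33.9 and 63.7 TPM, and overlapped with the HFSCs. With EpiSC library 1 left out 2 genes passed, Herpud1 and Hspa5, and with EpiSC library 2 left out Pdia3 as well, while Canx had an adjusted p of 0.0781 and 0.0697 and Pdia4 of 0.0763 and 0.0581 in these fits.

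Set side by side over all 7 groups, Hspa5 ranged more widely than the other chaperone genes Hsp90b1, Calr and Canx. Its group means in order were 1454 TPM in long-term ad libitum, 936 in ADF and 762 in telogen HFSCs, 519 in EpiSCs, and 244, 228 and 162 TPM in HFSCs after 48 h of fasting, ad libitum and after 24 h. The ranges of telogen and ADF HFSCs overlapped, as did those of telogen HFSCs and EpiSCs and those of 48 h and ad libitum HFSCs. Levels from separate tables may not share a normalisation, and no test was made across tables. The highest group mean was 15.9-fold the lowest for Herpud1, 8.95-fold for Hspa5, 5.76-fold for Dnajb9, 4.67-fold for Pdia6 and 4.21-fold for Pdia4, and between 1.86-fold (Xbp1) and 3.46-fold (Pdia3) for the other 5 genes. The share of Hspa5 in the summed TPM of the 10 genes was 42.6% in telogen HFSCs, 39.6% in ADF and 43.9% in long-term ad libitum HFSCs, and 23.2% in EpiSCs. For the telogen and long-term libraries, with the higher shares, the submitters' notes name Trimmomatic, and for all others fastp. Processing and group cannot be told apart for this share. The ratio of Dnajb9 to Hsp90b1 was 2.34 in telogen HFSCs, 1.83 in ADF and 1.72 in long-term ad libitum HFSCs, and 0.382 in EpiSCs.

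Other ER genes were counted in 8 lists of 107 genes in all, without the 10. At 24 h, 1 of 102 tested rose (0.98%) and 6 fell (5.88%), against 1.47% and 1.6% of all genes, with a median log2 fold change of -0.07, against -0.02 over all genes. After scaling 3 rose and 6 fell, with Atf4 (0.87, adjusted p = 0.0367) and Fkbp10 (0.82, adjusted p = 0.0405) added to those that rose. Those that fell were Sdf2l1 and Creld2, both BiP partners, the oxidoreductase genes Pdia5 and Tmx2, the translocon subunit gene Sec61b, and Serpinh1, the collagen chaperone. Sdf2l1 averaged 9.53 ± 2.67 TPM in 24 h fasted HFSCs and 29.0 ± 4.24 TPM in ad libitum HFSCs (-1.53, adjusted p = 0.0222), a difference larger than the spread between replicates. Creld2 averaged 29.4 ± 2.35 TPM in 24 h fasted HFSCs and 62.5 ± 6.09 TPM in ad libitum HFSCs (SD, n = 3 each; -1.06, adjusted p = 0.0286). Ube2j1, a ubiquitin-conjugating enzyme of ER-associated degradation, rose, with 30.0 ± 9.29 TPM in 24 h fasted HFSCs and 10.3 ± 2.99 TPM in ad libitum HFSCs (1.44, adjusted p = 0.0259). With limma 0 of 8 glycan trimming genes, 0 of 13 stress sensor and factor genes and 0 of 9 calcium handling genes passed at 24 h. At an unadjusted p under 0.05 these counts were 0, 4 (3 higher and 1 lower) and 0. Over all 11533 genes 1972 met that threshold in either direction. Of the genes in these 3 lists Atf4 passed after scaling.

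At 48 h 14 of the 102 rose (13.7%) and 2 fell (1.96%), shares near the 13.3% and 1.98% of all genes. After scaling 6 rose (5.88%) and 9 fell (8.82%), against 5.22% and 5.19% of all genes (median 0.42 as deposited and -0.04 scaled). Those that rose on both scales were Ube2j1 (2.10, adjusted p = 0.000818; scaled 1.63), Stt3b of the oligosaccharyl transferase (1.95), Ppp1r15a, Dnajc3 of the BiP partners (1.38), Sec62 of the translocation machinery (1.31) and Atf4. Those that fell on both scales were Pdia5 (-1.65, adjusted p = 0.031; scaled -1.87) and Tmx2 (-1.17, adjusted p = 0.016; scaled -1.65), and Sdf2l1, Manf, Ostc, Sec61b, Ddost, Serpinh1 and Ppib fell after scaling only. Ppp1r15a, which encodes the GADD34 subunit that ends the translational block of PERK, measured 523, 524 and 472 TPM in 48 h fasted HFSCs and 187, 181 and 176 TPM in ad libitum HFSCs (1.48, adjusted p = 0.000312; scaled 0.98). Atf4, the transcription factor of that branch, measured 145, 123 and 205 TPM in 48 h fasted HFSCs and 62.5, 83.1 and 51.3 TPM in ad libitum HFSCs (1.25, adjusted p = 0.0104; scaled 0.75). Both sets of fasted libraries were above the fed ones. Of the sensors, Atf6, Eif2ak3 (PERK) and Ern1 (IRE1) had log2 fold changes of 0.89, 0.47 and 0.69 at 48 h, and none passed.

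In telogen HFSCs 6 of 103 rose (5.83%) and 0 fell, against 5.01% and 1.09% of all genes (median 0.18, against 0.03 over all genes). After scaling 5 rose (4.85%) and 0 fell, against 5.53% and 1.84% of all genes, so the counts were near those of all genes. Those that rose included Ube2j1 (2.48, adjusted p = 0.000401) and Selenok (1.20, adjusted p = 0.00976) of ER-associated degradation, and 3 genes of the PERK branch. Among these 3, Ddit3, which encodes CHOP, measured 223 and 238 TPM in telogen HFSCs, against 47.8 and 35.6 TPM in ad libitum HFSCs (2.45, adjusted p = 1.04e-05). Atf4 measured 366 and 329 TPM in telogen HFSCs and 83.1 and 51.3 TPM in ad libitum HFSCs (2.39, adjusted p = 9.48e-06), and Ppp1r15a measured 881 and 698 TPM in telogen HFSCs and 181 and 176 TPM in ad libitum HFSCs (2.13, adjusted p = 9.31e-06). These 3 genes differed less between the telogen libraries than Hspa5 or Dnajb9 did.

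EpiSCs had 37 of 103 list genes higher (35.9%) and 6 lower (5.83%) than HFSCs, against 31.5% and 9.1% of all genes. After scaling 15 were higher (14.6%) and 16 lower (15.5%), against 17% and 15.6% of all genes, shares near those of all genes. Of 8 glycan trimming genes 6 were higher (3 higher and 1 lower scaled), led by Mogs (2.10), Uggt1 (1.47) and Ganab (1.37), whose products trim or check the glycans that calreticulin and calnexin bind. Ppp1r15b (3.30, adjusted p = 0.00101) and Ppp1r15a (1.96, adjusted p = 0.000259) led the 6 of 14 stress sensor and factor genes that were higher (3 higher scaled), and 8 of 17 degradation genes were higher (2 higher scaled), among them Ube2j1 (1.38, adjusted p = 0.0141). Among collagen folding genes Fkbp10, a prolyl isomerase, was lower, with 0.575 ± 0.241 TPM in EpiSCs (SD, n = 2) and 30.7 ± 5.90 TPM in ad libitum HFSCs (SD, n = 3), giving -4.32 on the log2 scale (adjusted p = 6.78e-05). For ADF against long-term ad libitum HFSCs 0 of 105 passed with limma (median 0.10, against 0.09 over all genes). An unadjusted p under 0.05 was met by 13, 5 higher and 8 lower, beside 1720 of all 12162 genes. At 48 h against 24 h 0 of 102 passed (median 0.44, against 0.47 over all genes, and scaled -0.03 and 0.03). On the deposited scale 22 had an unadjusted p under 0.05, all higher at 48 h, beside 2461 of all 11533 genes in either direction.

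**Figure D4:**
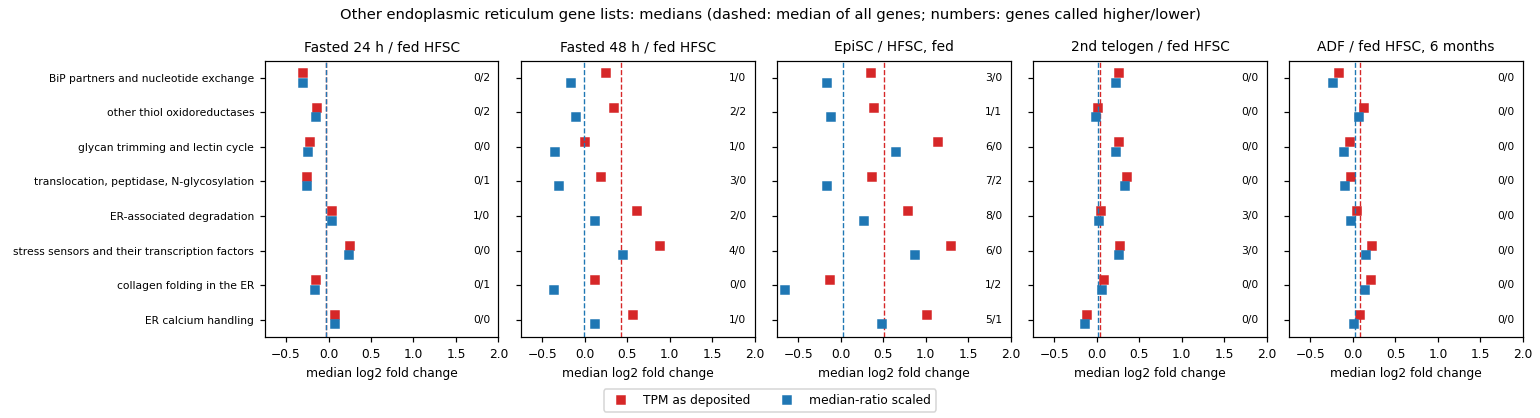
Median log2 fold change of TPM + 1 for each of 8 lists of other ER genes in 5 comparisons, as deposited and after median-ratio scaling, with dashed lines at the median of all genes tested and the numbers of genes called higher and lower as deposited at the right. The stress sensor and factor list had a deposited median of 0.26 at 24 h and 0.89 at 48 h, where all genes had -0.02 and 0.42.

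Within the 9 HFSC libraries of the short experiment, pairs of the 10 genes were compared by the root mean square difference of their centred log2 values, a distance with no test. The closest pairs were Hspa5 with Pdia3 (0.185) and Hsp90b1 with Pdia6 (0.192), and the farthest was Calr with Dnajb9 (1.21). About their own means Hspa5 varied by 0.285, Pdia3 by 0.220, Hsp90b1 by 0.417 and Pdia6 by 0.485. Genes that vary little lie close by this distance whether or not they change together. Over 6527 other genes of at least 10 TPM on average, those nearest to Hspa5 were Mad2l2 (0.106), Gtf2e2 (0.107) and Fkbp2 (0.109), where Hspa5 itself varied by 0.285. Those nearest to Calr were Pkig (0.137), Mrpl45 (0.195) and Tagln2 (0.198), where Calr varied by 0.552. Those nearest to Xbp1 were Tpd52l2 (0.077), Nsfl1c (0.0919) and Ufd1 (0.0922), where Xbp1 varied by 0.353.

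The promoter elements shown above can be read beside these values. Of the 5 genes with an exact ERSE, 3 fell at 24 h (Calr, Hsp90b1 and Pdia6) and the other 2, Hspa5 and Canx, did not pass. In comparison, 3 of the 10 genes and 1.6% of all genes fell. The 5 without an ERSE in the window searched comprised Dnajb9, which rose, and Pdia3, Pdia4, Xbp1 and Herpud1, which did not pass. For Dnajb9 that window lay inside the gene as GENCODE draws it. Herpud1 had no ERSE but held the element ERSE-II, and inexact matches were not searched. At 48 h as deposited Calr, with an ERSE, fell, and Dnajb9 and Herpud1, without one, rose. In telogen HFSCs Hspa5, with one, and Dnajb9, without one, both rose. Higher in EpiSCs were Hspa5, Canx and Pdia6, with one, and Pdia3, Pdia4 and Herpud1, without one. No gene of either kind passed in ADF. Outside the 10, 32 genes held an ERSE in their window and 10 of them were tested. Of those tested, 0 rose and 1 fell at 24 h, at a median log2 fold change of 0.19, against -0.02 over all genes. As deposited, 1 of these 10 rose at 48 h (median 0.39, against 0.42 over all genes), and in EpiSCs 2 were higher and 1 lower (0.41, against 0.50). Their medians were 0.06 in telogen HFSCs, against 0.03 over all genes, and 0.35 in ADF, against 0.09.

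By the GENCODE M21 annotation of GRCm38 (mm10), Hspa5 lies on chromosome 2 at 34771970 to 34777547, Calr on chromosome 8 at 84841850 to 84846934, Hsp90b1 on chromosome 10 at 86690209 to 86705509, Dnajb9 on chromosome 12 at 44205559 to 44210326 and Herpud1 on chromosome 8 at 94386438 to 94395377. TPM values are sums over a gene's transcripts, exons, coding parts and UTRs together. Exons of Pdia3 overlap Catsper2 and those of Pdia6 overlap Atp6v1c2 on the opposite strand, exons of Hsp90b1 overlap 3 other annotated genes, and Calr has an annotated pseudogene, Calr-ps. Use of strand in the quantification is not stated, so reads of such partners cannot be told apart for these genes.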

How the data were processed

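Messenger RNA of sorted mouse HFSCs and EpiSCs was measured in 17 libraries, grouped by their titles. Values in all 3 deposited tables are TPM per gene symbol, computed by the authors. The submitters' processing notes list the mm10 build, Salmon 1.4.0 and DESeq2 1.36.0 for all libraries, fastp 0.23.1 for the short experiment, and Trimmomatic 0.39 for telogen and long-term HFSCs, without role or order. Per the labels' protocols, a column kit for low input yielded the RNA, a single-cell kit amplified full-length mRNA, and a transposase kit made the libraries. The telogen table repeats ad libitum libraries 2 and 3, with 35674 of 35674 values equal within 1e-06 TPM, and these were counted once. Its telogen columns do not say which titled replicate they are. The repeated ad libitum columns are named there with the prefix ana1, and its meaning is unknown.

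Tests on log2(TPM + 1) used limma 3.58.1 (R 4.3.3) with a mean-variance trend, two-sided, for genes with a mean of at least 1 TPM over the libraries of a fit, adjusted by Benjamini-Hochberg over all genes. On this scale the change of low genes is understated. The 9 short-experiment HFSC libraries shared 1 fit, and the other fits held only the groups compared (5 libraries for EpiSCs against HFSCs, 4 each for telogen and ADF). TPM holds no counts, so depth is unknown and no count model or counting interval was used. The fits were tested on simulated data with independent normal errors. Those data held no shift in library composition, so they do not test the effect of scale. Since the labels name no separate animals, a p-value here reflects only the spread between samples, possibly technical. The alternatives were a pseudocount of 0.1, no filter, median-ratio scaling, removal of mitochondrial and ribosomal protein genes with rescaling, a replicate block, other library sets and leaving out each library. The 10 genes and the lists of other ER genes were chosen with earlier results of these data known. Named list genes were the up to 4 of each list with the largest absolute log2 fold change among those called in a comparison, or fewer for brevity, and genes outside this rule (the 3 sensors at 48 h) were named after their values were seen. Markers of the cell types were taken as fixed lists.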

Additional observations from a re-analysis of the deposited data

Results flagged for a closer look

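Dnajb9 values lay in opposite directions from ad libitum feeding in the short fasts and in the long-term diet. Every 24 h fasted library was above every ad libitum library (log2 fold change 1.17), as was every 48 h fasted library (1.65), whereas both ADF libraries were below both long-term ad libitum libraries (-0.42, not called). Xbp1 was likewise higher in every 48 h fasted library than in every ad libitum library (0.63, not called) and lower in both ADF libraries than in both long-term ad libitum libraries (-0.33, not called). After median-ratio scaling the 48 h and ad libitum values of Xbp1 overlapped. These differences between the experiments were not tested, since the tables share no library between them, and ADF samples were taken the day after a fast.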

How the results depend on the processing

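All 60 log2 fold changes of the 10 genes kept their direction and their side of the threshold with a pseudocount of 0.1. The number of the 10 genes called moved at 24 h to 1 with only the groups compared (4 as reported), at 48 h to 6 with median-ratio scaling and 6 once mitochondrial and ribosomal protein genes were removed (3 as reported), and in telogen to 0 without the filter (2 as reported). Without the filter Pdia6 was also lost at 24 h (adjusted p = 0.0561) and in EpiSCs (0.0823). Leaving out single libraries gave 1 to 4 genes at 24 h, 2 to 4 at 48 h, 2 to 6 for EpiSCs, 0 to 2 for telogen, and 0 to 0 for ADF and for 48 h against 24 h. Xbp1 at 48 h passed with only the groups compared (adjusted p = 0.0285).

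Signs that changed belonged to genes not called as deposited in that comparison. With median-ratio scaling they were Hspa5 -0.39 and Canx -0.22 at 48 h, Dnajb9 -0.0094, Calr -0.17, Canx -0.38, Pdia3 -0.21 and Pdia4 -0.23 at 48 h against 24 h, and Hsp90b1 -0.19, Dnajb9 -0.37, Calr -0.10 and Xbp1 -0.23 in EpiSCs. Without mitochondrial and ribosomal protein genes they were Xbp1 -0.0193 at 24 h, Hspa5 -0.27 and Canx -0.12 at 48 h, Calr -0.0052, Canx -0.22, Pdia3 -0.0495 and Pdia4 -0.0735 at 48 h against 24 h, Hsp90b1 -0.12, Dnajb9 -0.30, Calr -0.0353 and Xbp1 -0.16 in EpiSCs, and Pdia3 -0.35, Pdia4 -0.29, Pdia6 -0.14 and Herpud1 -0.34 in telogen. With single libraries left out, log2 fold changes ran from -0.0938 to 0.21 for Xbp1 at 24 h, -0.0082 to 0.20 for Hspa5 at 48 h, -0.29 to 0.60 for Dnajb9 in EpiSCs and -0.17 to 0.35 for Canx in ADF. In telogen they ran from -0.69 to 0.58 for Canx, -0.50 to 0.47 for Xbp1, -0.34 to 0.54 for Pdia4, -0.0504 to 0.16 for Herpud1, -0.45 to 0.55 for Pdia3, -0.0723 to 0.59 for Pdia6, -1.24 to 0.0266 for Hsp90b1 and -0.54 to 0.25 for Calr. The cause of these changes was not tested.

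Over all genes, 354 were called at 24 h and 61 without the filter, 559 with scaling, 539 without the mitochondrial and ribosomal genes, 179 with only the groups compared, and 99 to 489 with a library left out. At 48 h 1765 were called, and 918, 1162 and 2880 without the filter, without those genes and with only the groups compared (744 to 2448 with a library left out). At 48 h against 24 h 5 were called, and 1 with the pseudocount of 0.1, 0 without the filter, with scaling or without those genes, 2 with only the groups compared, and 0 to 345 with a library left out. For EpiSCs 4782 became 1253 to 5610 with a library left out, for ADF 1 became 0 without the filter or those genes and 0 to 16 with a library left out, and for telogen 709 became 4 without the filter and 29 to 553 with a library left out. The share of calls that were higher was 87.1% at 48 h and 50.2% with scaling, 77.6% for EpiSCs and 52.2% with scaling, and 82.1% for telogen and 58.9% with those genes removed.

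With the replicate number as a block, 3 of the 10 genes were called at 24 h, where Hsp90b1 was lost (adjusted p = 0.0536), 3 at 48 h, 0 at 48 h against 24 h, 0 in ADF, and 5 or 6 in EpiSCs by title or description numbers, where Pdia6 was lost with the title numbers (0.087). Over all genes the block gave 19 calls at 48 h against 24 h and 284 in ADF. Deviations of same-numbered libraries correlated at -0.132 to 0.0482 in the short HFSC experiment, where the best match had the same number in 6 of 18 cases. They correlated at -0.0039 in the long-term experiment and at 0.0202 to 0.0505 for EpiSCs by title numbers. With 2 or 3 libraries a group, these values cannot tell whether same-numbered libraries share an animal, day or batch. For telogen against ad libitum HFSCs, no paired analysis was possible because the telogen columns carry no number tied to a titled replicate. Depth is unknown, and with 2 or 3 libraries a group a missed threshold does not show that values were equal.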
